A study of Mus musculus with 24 samples.

Results

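The lipoxygenase genes are a small family whose best known substrate is arachidonic acid, and Alox8, the gene for mouse arachidonate 8-lipoxygenase, leads the set described here. The set holds 7 genes of the 18821 measured: Alox8, Alox5, Alox12, Alox12b, Alox15 and Aloxe3, which encode lipoxygenases, and Alox5ap, which encodes the membrane protein that presents arachidonic acid to 5-lipoxygenase. The members were chosen by name around Alox8, and Alox8 was chosen for its difference between mutant and wild-type mice. That difference and the differences of the other members are therefore given as a description without a test. Each member had 1 row in the deposited table with a single gene symbol, so all 7 were measured and none was removed by a filter.

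Each array held RNA of prefrontal cortex of male mice, 8 weeks old, of C57BL6/J background; the labels call the arrays replicates and do not say whether each was 1 mouse. Of the 24 arrays, 12 were from mice labelled Df16(A)+/-, which carry the engineered Df(16)A deletion on 1 copy of chromosome 16 and model the human 22q11.2 microdeletion, and 12 were from wild-type littermates (WT). Values are RMA expression (robust multi-array average, a background-corrected and summarised probe intensity) on the log2 scale, so a difference of 1 is a doubling. The deletion is in every cell of the mutants, and the tissue is a mixture of cell types. In such bulk tissue a change in the number of cells of a type and a change in RNA per cell cannot be told apart.

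Lipoxygenases insert molecular oxygen into polyunsaturated fatty acids and form hydroperoxides, which are reduced to hydroxy fatty acids or carried on to leukotrienes, lipoxins and hepoxilins. Many of them are named by a carbon of arachidonic acid that they oxygenate. In the brain the family is best known from 5-lipoxygenase and 12/15-lipoxygenase, which have been studied in microglia, in neurons and after ischaemia. Alox8, whose human counterpart is ALOX15B, is known mainly from mouse skin treated with phorbol ester, and Alox12b and Aloxe3 act one after the other in the epidermal water barrier. None of the members lies on chromosome 16, so none is within the deletion.

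The 24 arrays were alike, with correlations between arrays from 0.994 to 0.997 and array medians from 6.71 to 6.82. All 10 genes of the deleted segment that were looked up to check the labels were lower in mutants, by 0.54 to 0.88 on the log2 scale, without overlap of the genotypes in any of them. Among the neuronal markers fixed for the tissue check, Snap25 stood at 13.56 ± 0.03 (SD, n = 12) in wild types and Slc17a7, the cortical glutamate transporter, at 13.06 ± 0.04. The wild-type means of the 10 measured keratinocyte markers ran from 4.23 (Krtdap) to 7.60 (Lor); the table holds no detection call, so none of them can be called absent. Wild types of replicates 10 and 11 stood apart in granulocyte genes: the mean of 13 granulocyte markers was 7.03 and 7.92 on these arrays and between 5.43 and 6.02 in the other 22. These arrays, and mutants of replicates 5, 9 and 10, which lay apart in an earlier analysis of these arrays, were kept, and values without them are given where they bear on a member.

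The promoter of Alox8 is shown because Alox8 was the member with the clearest difference between genotypes, and that of Alox12b because it is the nearest measured gene to Alox8 and had the next largest difference. Both are RefSeq sequences of build GRCm38.p6 that run from 250 bases before to 50 bases after the annotated start, Alox8 from chr11:69197794-69198093 on the minus strand and Alox12b from chr11:69156822-69157121 on the plus strand. RefSeq entries were found for 4 of the 7 members. Capitals mark the GC box (letters GGGCGG on either strand).
Alox8: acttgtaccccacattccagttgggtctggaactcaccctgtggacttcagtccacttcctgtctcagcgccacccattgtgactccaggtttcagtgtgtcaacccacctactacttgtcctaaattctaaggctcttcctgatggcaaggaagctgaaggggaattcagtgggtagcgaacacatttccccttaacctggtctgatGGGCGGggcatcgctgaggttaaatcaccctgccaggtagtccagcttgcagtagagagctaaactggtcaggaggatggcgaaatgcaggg
Alox12b: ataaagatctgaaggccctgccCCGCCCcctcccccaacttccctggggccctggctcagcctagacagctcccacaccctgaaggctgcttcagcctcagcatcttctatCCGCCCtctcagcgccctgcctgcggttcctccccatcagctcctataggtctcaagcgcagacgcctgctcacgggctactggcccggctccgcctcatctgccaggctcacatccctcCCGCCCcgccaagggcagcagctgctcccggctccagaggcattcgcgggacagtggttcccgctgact

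The Alox8 window held 1 GC box, which starts at position -42 from the annotated start, and the Alox12b window held 3. The windows of Alox5 and Alox12 held 1 and 3. At least 1 GC box was present in 35.63% of the 32817 promoters of this length, so the motif is common. No other motif searched on both strands was found in any of the 4 windows. The letters TATAAA of the TATA box were present in 13.62% of all promoters. The letters of the CCAAT box (CCAAT) were present in 37.39%. The palindromic E-box, with letters CACGTG, was present in 7.15%. The half-site of nuclear receptors, with letters AGGTCA, was present in 16.26%, and the AP-1 site, with letters TGANTCA, in 7.81%. The Alox8 window had 52.7% G and C, the same as the median of all promoters, and 5 CpG dinucleotides; the Alox12b window had 66% and 15 CpG, against a median of 7 over all promoters.

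Alox8 was higher in mutants. Its value ranged from 8.13 to 8.40 with a median of 8.27 in the 12 mutants, and from 7.84 to 8.17 with a median of 8.07 in the 12 wild types. The groups met only at their edges: 10 mutants lay above every wild type, and 10 wild types lay below every mutant. In 0.234% of all genes at least 10 mutants lay above every wild type; as Alox8 was chosen on this contrast, nothing is read from that. The mutants that fell within the wild-type range were those of replicates 4 and 9, at 8.15 and 8.13. The means were 8.28 ± 0.09 (SD, n = 12) and 8.03 ± 0.12, a difference of 0.24 ± 0.04 (SE of the limma fit), which is a fold of 1.18. The difference was larger than the standard deviation within a genotype, 0.10.

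The lowest Alox8 values were those of the wild types of replicates 7, 9, 11 and 10, at 7.84, 7.85, 7.90 and 7.95. These arrays all carry running numbers above 12 in the labels, and the wild types on arrays 1 to 12 lay between 8.07 and 8.17. The difference was 0.16 over arrays 1 to 12 (7 mutants and 5 wild types) and 0.30 over arrays 13 to 24 (5 and 7), so it was larger over the later arrays. In fits of either set alone Alox8 was not among the genes called, 0.308% and 0.303% of all genes. Whether the sets of arrays differ in it was not tested. Leaving out the granulocyte-high wild types of replicates 10 and 11 gave a difference of 0.22, and leaving out the 3 mutants that lay apart gave 0.27. Those 3 mutants, at 8.25, 8.13 and 8.21, were below the mutant mean, so leaving them out raises the difference. Wild types of replicates 5 and 9 were kept in that fit. They lie at -9.9 and -8.9 on the first component described below, and the 3 mutants at -9.7, -17.0 and -9.7.

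**Figure D1:**
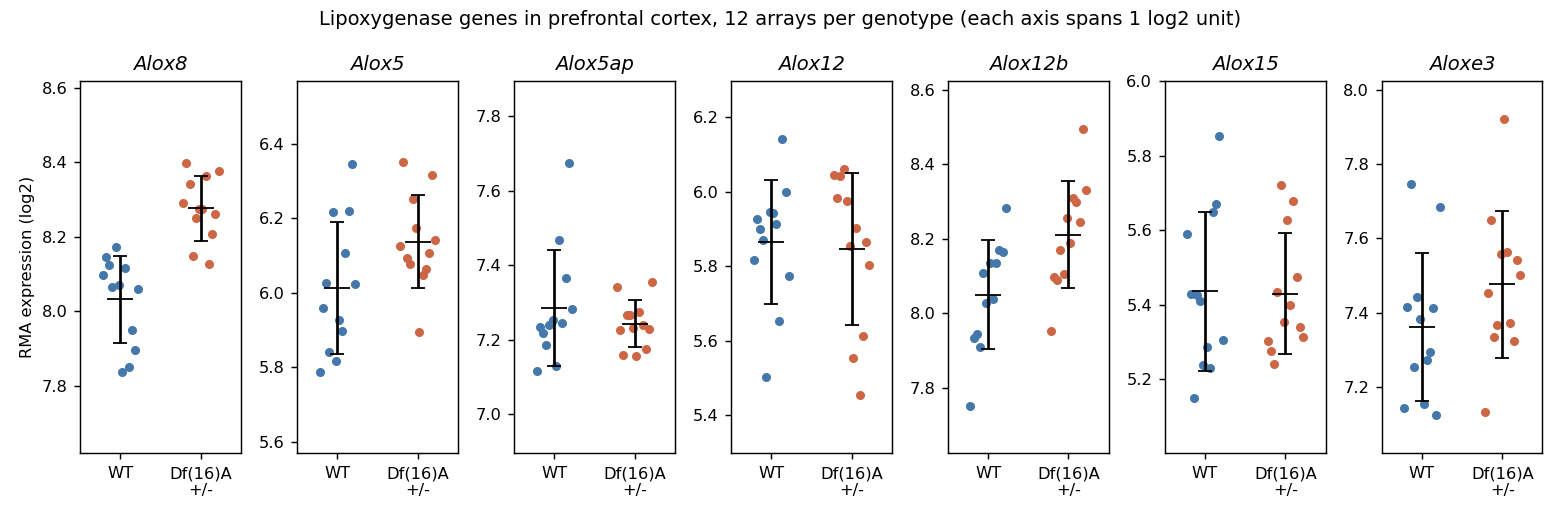
RMA expression (log2) of the 7 lipoxygenase genes, 1 point per array (replicates 1 to 12 from left to right), with the mean and SD of the 12 wild types (WT) and 12 Df(16)A+/- mutants; every vertical axis spans 1 log2 unit but starts at a different level. The Alox8 values of the mutants, 8.13 to 8.40, overlap those of the wild types, 7.84 to 8.17, only at the edge, and those of the other genes overlap broadly.

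Among all genes, 0.531% were called higher in mutants and 0.228% lower at an adjusted p under 0.05, 0.76% in all. Of the 7 members 1, Alox8, was among the genes called. With replicate number as a block and with the running array number as a term there were 2, Alox8 and Alox12b, in fits that called 0.781% and 0.93% of genes. As the members were chosen around this contrast, nothing is read from these counts. The median difference over the 7 members was 0.12, with 4 above 0 and 3 below, and the median over all genes was -0.001, with 49% above 0.

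Alox12b encodes the 12R-lipoxygenase that starts the oxidation of linoleate-containing ceramides in the epidermis. It ranged from 7.95 to 8.50 with a median of 8.22 in mutants and from 7.75 to 8.28 with a median of 8.07 in wild types. The groups overlapped, with 4 mutants above every wild type and 4 wild types below every mutant, and 11 of 12 mutants lay above the wild-type median. The difference was 0.16 ± 0.06 (SE), from 8.05 ± 0.15 (SD, n = 12) to 8.21 ± 0.14.

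Aloxe3, the hydroperoxide isomerase that acts on the product of Alox12b, ranged from 7.13 to 7.92 with a median of 7.48 in mutants and from 7.13 to 7.75 with a median of 7.34 in wild types. The ranges nearly coincided, with 1 mutant, of replicate 7, above every wild type, and the difference was 0.12 ± 0.08. Alox5, the 5-lipoxygenase of the leukotriene pathway, ranged from 5.89 to 6.35 with a median of 6.12 in mutants and from 5.79 to 6.34 with a median of 5.99 in wild types. Its highest mutant and its highest wild type were almost level, while 3 wild types lay below every mutant; the difference was 0.12 ± 0.06.

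Alox5ap ranged from 7.15 to 7.35 with a median of 7.24 in mutants and from 7.11 to 7.67 with a median of 7.24 in wild types. The medians coincided and the wild types spread more widely, with an SD of 0.16 against 0.06 in mutants; the difference was -0.04 ± 0.05. Alox12, the platelet-type 12-lipoxygenase, ranged from 5.45 to 6.06 in mutants and from 5.50 to 6.14 in wild types, with medians of 5.88 and 5.91 and a difference of -0.02 ± 0.07. Alox15, the 12/15-lipoxygenase of macrophages and eosinophils, ranged from 5.24 to 5.72 in mutants and from 5.15 to 5.85 in wild types, with medians of 5.38 and 5.42 and a difference of -0.01 ± 0.07. For both genes the groups overlapped over almost their whole range, and the 95% intervals of the difference ran from -0.17 to 0.13 for Alox12 and from -0.16 to 0.15 for Alox15.

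Signal limits what these values can show. Alox5, Alox12 and Alox15 were dimmer than the array medians. Alox15, at 5.44 in wild types, was below the level of 5.45 that most genes exceeded. Background signal adds to both genotypes in dim rows and makes a difference there look smaller. Alox12e, an epidermal 12-lipoxygenase gene that is not among the members, had a difference of 0.05 ± 0.06 at a level of 4.42 ± 0.14 in wild types (limma, adjusted p = 0.818).

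Alox12b carried a second pattern that the choice of members did not use. Its value went up with the running array number in the labels, in both genotypes. In mutants the mean rose from 8.12 ± 0.10 (SD, n = 7) on arrays 1 to 12 to 8.34 ± 0.10 (n = 5) on arrays 13 to 24, and in wild types from 7.93 ± 0.13 (n = 5) to 8.14 ± 0.09 (n = 7). The lowest value of the series, 7.75, was that of the wild type on array 2, and the highest, 8.50, that of the mutant on array 20. Deviations from the genotype means correlated with array number at Pearson r = 0.90 and Spearman rho = 0.92 over 24 arrays (permutation test within genotype, two-sided, p = 1e-05 for each, the smallest that 100000 resamples can give; adjusted p = 7e-05 over the 7 members). Without arrays 1 and 24 the Pearson correlation was 0.87, and it was 0.89 within the 12 mutants and 0.91 within the 12 wild types.

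In a limma fit of all genes with genotype and array number as terms, Alox12b rose by 0.41 ± 0.05 (SE) from array 1 to array 24 (adjusted p = 1.68e-05), and its p-value ranked 6 among 18821 genes. An array-number term was called for 1.84% of genes, 228 rising and 118 falling; that fit was added after the trend had been seen. The change of Alox12b along the arrays was larger than its genotype difference. In the same fit the genotype difference of Alox12b was 0.19 ± 0.03 against 0.16 ± 0.06 without the term. With the trend taken out, the mutants lay between 8.14 and 8.36 and the wild types between 7.94 and 8.15. Then 10 mutants lay above every wild type, against 4 in the values as deposited. The slope was fitted to these same values, and the share of all genes after this step was not computed. Nothing is therefore read from that count. The labels do not say what the running number stands for, and its part in the level of Alox12b was not tested further.

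The other members showed no array-number term past the threshold. For Alox8 the change from array 1 to array 24 was -0.13 ± 0.07 (limma, adjusted p = 0.379), with r = -0.41 and rho = -0.41 (permutation test, adjusted p = 0.13 and 0.119), and its genotype difference with the term was 0.24 ± 0.04. Alox5ap had 0.16 ± 0.07 (adjusted p = 0.333) with r = 0.43 and rho = 0.44 (permutation test, adjusted p = 0.13 and 0.119). Of the remaining 4, Alox5, Alox12 and Alox15 had absolute correlations between 0.25 and 0.30 and Aloxe3 one of 0.12. Between arrays 1 to 12 and 13 to 24, Alox12b differed by 0.21 ± 0.04 (permutation test, two-sided, adjusted p = 0.00028 over 7 members), Alox8 by -0.08 ± 0.04 and Alox5ap by 0.08 ± 0.05 (adjusted p = 0.168 and 0.201).

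**Figure D2:**
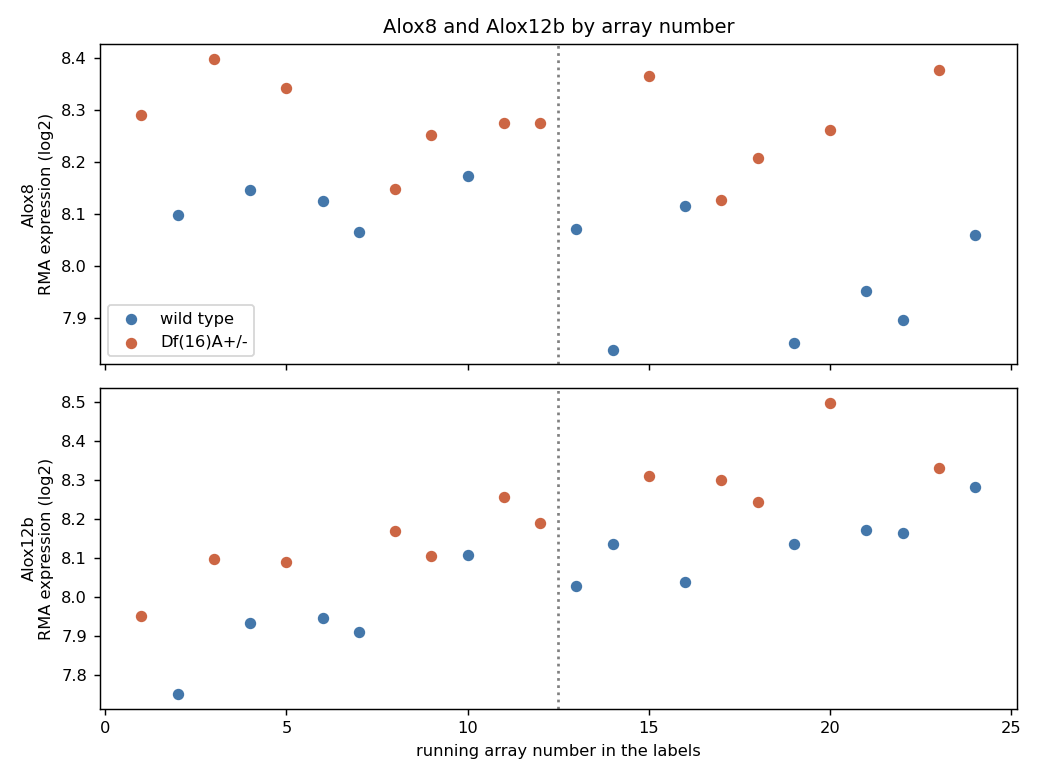
RMA expression (log2) of Alox8 (top) and Alox12b (bottom) against the running array number in the labels, 1 point per array, coloured by genotype; the dotted line separates arrays 1 to 12 from 13 to 24. Alox12b goes up along the array numbers in both genotypes, by 0.41 from array 1 to array 24, and Alox8 shows no such rise.

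Alox8, Alox12b and Aloxe3 are neighbours on chromosome 11 in the RefSeq gene order, with Aloxe3, Alox12b and Alox8 in sequence, followed by Gucy2e. No measured gene lies between them. The 3 had differences of 0.12, 0.16 and 0.24. Of the 10 nearest measured genes on each side of the 3, none of the 20 passed the test over all genes in either direction. That comparison called 0.76% of genes. Of the 20, 2 had an unadjusted p under 0.05 (limma), against 11.9% of all genes, so nothing is read from that count.

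Hes7, the next gene on the Aloxe3 side and a transcriptional repressor of the segmentation clock, had a difference of -0.10 ± 0.06 (limma, adjusted p = 0.505). Per1, a circadian clock gene, had -0.003 ± 0.06 and Vamp2, the synaptic vesicle SNARE, -0.001 ± 0.02. On the Alox8 side, Gucy2e, a guanylate cyclase of photoreceptors, had -0.03 ± 0.05, Cntrob, a centriole protein gene, 0.005 ± 0.04 and Trappc1, a trafficking subunit, -0.06 ± 0.03 (limma, adjusted p = 0.841, 0.981 and 0.521). The median over the 20 was -0.02, with 7 above 0 and 13 below.

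**Figure D3:**
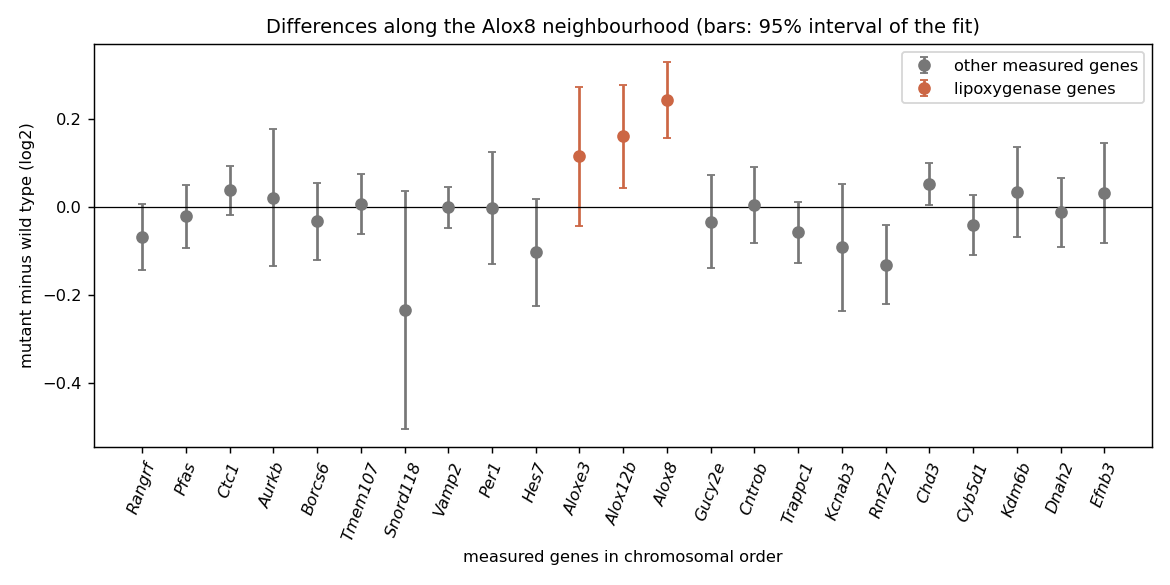
Mutant minus wild type on the log2 scale for Alox8, Alox12b, Aloxe3 and the 10 nearest measured genes on each side of them, in chromosomal order; points are differences of the means and bars the 95% interval of the limma fit. The lipoxygenase genes lie between 0.12 and 0.24 and the 20 other genes between -0.24 and 0.05. Alox8 was chosen for its difference, so the contrast with the other genes is a description.

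Within a genotype, no pair among the neighbours Alox8, Alox12b and Aloxe3 passed a correlation test after adjustment. The array-number trend of Alox12b was not taken out, so these values cannot show whether the neighbours vary together. Deviations from the genotype means of Alox8 and Alox12b correlated at r = -0.33 and rho = -0.33 over 24 arrays, those of Alox8 and Aloxe3 at 0.39 and 0.46, and those of Alox12b and Aloxe3 at 0.27 and 0.24 (permutation tests, two-sided, adjusted p for r and rho = 0.421 and 0.344, 0.338 and 0.217, and 0.421 and 0.546 over the 21 pairs of members). The strongest pairs were Alox5 with Alox5ap, r = 0.52 and rho = 0.39, and Alox8 with Alox15, r = -0.53 and rho = -0.53 (adjusted p = 0.2 and 0.289, and 0.2 and 0.217). Without the 2 arrays farthest from the median of the first gene named, r was 0.32 for Alox5 with Alox5ap and -0.65 for Alox8 with Alox15. No pair passed after adjustment; over the 21 pairs r ran from -0.53 to 0.52 with a median of 0.05.

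The genes whose deviations were most like those of Alox8, out of 18820, were Zfp395 (r = 0.77), Babam1 (0.77), Olfr730 (0.74) and Zfp212 (0.74), and the least like were Cycs, cytochrome c (r = -0.75), and Add2, an adducin of the membrane skeleton (-0.70), each over 24 arrays. They were picked from all genes as extremes, so these values are a description. Their genotype differences lay between -0.07 and 0.08 and none passed the test. For Alox12b the 3 most alike were Cbfa2t3 (0.87), Efnb1, an ephrin ligand (0.86), and Sema4d, a semaphorin (0.86). All 3 also rose with array number, by 0.39, 0.43 and 0.29 from array 1 to array 24. They were picked for likeness to Alox12b, whose own deviations follow array number. The choice therefore favoured such a rise, which is given as a description without a test. For Aloxe3 they were Gnb4 (0.79), Arpc1a (0.78) and Zfp64 (0.77), for Alox12 Bckdhb (0.77), Riok1 (0.75) and Recql5 (0.75), and for Alox5 Olfr1053 (0.72), Rrp1b (0.72) and Slc25a30 (0.68).

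Alox5ap and Alox15, which are known from blood and tissue leukocytes, had leukocyte genes among those most like them. For Alox5ap the 3 were Plbd1 (r = 0.84), a phospholipase-like protein of granulocytes, Camp (0.80), the granule antimicrobial peptide, and Mki67 (0.78), a proliferation marker; without the 2 arrays farthest out in Alox5ap they were 0.51, 0.60 and 0.60. For Alox15 the first was Prg2 (0.75), the major basic protein of eosinophils, and the others were Olfr399 and Trim30b (0.74 each). The mean of the 13 granulocyte markers correlated with Alox5ap at r = 0.74 and rho = 0.44 (permutation test within genotype, adjusted p = 0.0595 and 0.297 over 21 relations). With Alox15 the values were 0.58 and 0.35 (adjusted p = 0.0541 and 0.443), and with Alox5 0.51 and 0.18 (adjusted p = 0.101 and 0.596). None of these relations passed. Without the wild types of replicates 10 and 11, r was 0.34, 0.23 and -0.01 (permutation test, adjusted p = 0.547, 0.629 and 0.976). The deviations were still taken from the means of all 12 arrays of a genotype, so a shift between genotypes can enter these r. By these r the relation of Alox5 rested on those arrays, and those of Alox5ap and Alox15 were weaker without them. On them Alox5ap stood at 7.37 and 7.67, Alox5 at 6.22 and 6.34 and Alox15 at 5.67 and 5.85.

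For Alox8 the relation to the granulocyte mean was r = -0.31 and rho = -0.20 (permutation test, adjusted p = 0.469 and 0.596). Without the same arrays r was 0.01, with deviations again from the means of all 12 arrays of a genotype. All 13 granulocyte markers had differences below 0, with a median of -0.36, and 0 of them passed the limma test, 5 with an unadjusted p under 0.05, which is 38.5% of them against 11.9% of all genes; the marker mean ran from 5.43 to 5.97 in mutants and from 5.56 to 7.92 in wild types. The difference of Alox5ap without these wild types was 0.006 and that of Alox5 0.18. The mean of 13 microglia markers ran from 8.67 to 8.78 in mutants and from 8.66 to 8.79 in wild types. Its correlation with Alox8, r = 0.38 and rho = 0.29, did not pass (permutation test, adjusted p = 0.275 and 0.541). The 10 keratinocyte markers had a mean from 5.70 to 5.98 in mutants and from 5.70 to 5.87 in wild types. Of the 10, 9 had differences above 0, against 49% of all genes, and the median was 0.04. None of the 10 passed the test, and 2 had an unadjusted p under 0.05 (limma), which is 20% against 11.9% of all genes. The part of keratinocyte RNA in the Alox8 and Alox12b values was not tested.

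The members were also set against the first component of the deviations from the genotype means, which holds 13.9% of their variance over all genes. Alox12 followed it at r = 0.63 and rho = 0.48 (permutation test within genotype, adjusted p = 0.0365 and 0.297 over the 21 relations), so that it passed by r and not by rank. The mutant of replicate 9 and the wild type of replicate 5 were the arrays left out by the rule on distance along the component. Without them r was 0.41 (permutation test, p = 0.0777, adjusted p = 0.693), so the relation was weaker and did not pass. Without the granulocyte-high wild types r was 0.69 (permutation test, adjusted p = 0.0202). For each r without arrays, deviations were still taken from the means of all 12 arrays of a genotype. Alox15 went the other way, at r = -0.47 and rho = -0.43 (adjusted p = 0.0852 and 0.297). Without the mutant of replicate 9 and the wild type of replicate 5, its r was -0.43 and did not pass (permutation test, p = 0.035, adjusted p = 0.693). Without the granulocyte-high wild types, a choice made after the data were seen, its r was -0.62 (permutation test, adjusted p = 0.0227). No other member passed in any of these relations.

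**Figure D4:**
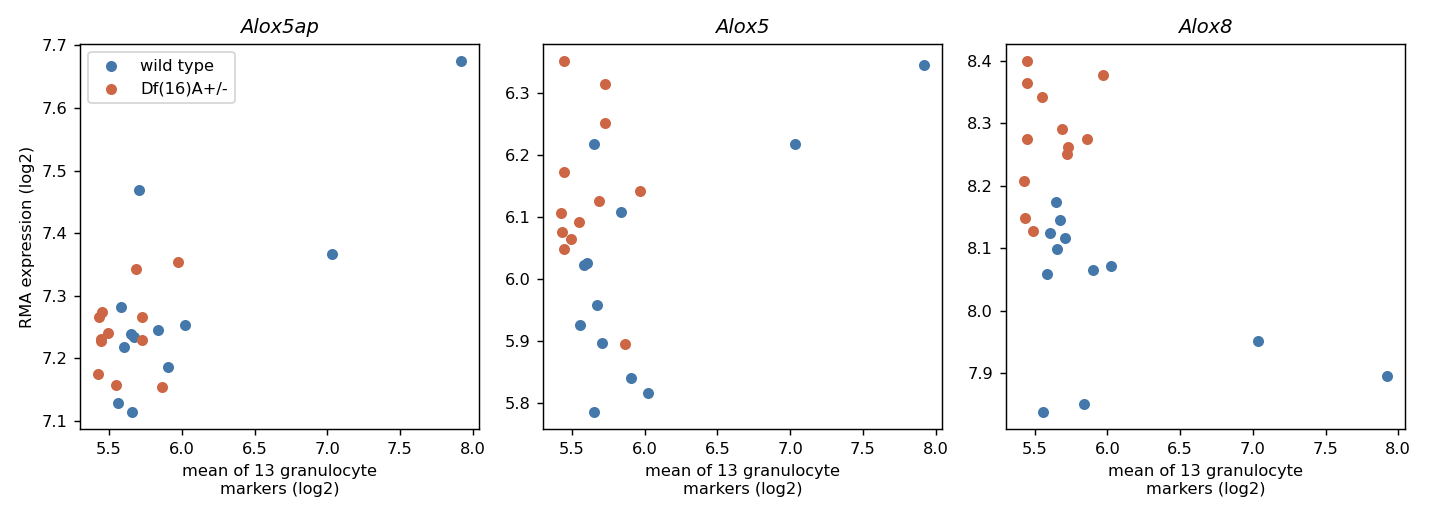
RMA expression (log2) of Alox5ap, Alox5 and Alox8 against the mean of 13 granulocyte markers (log2), 1 point per array, coloured by genotype. The wild types at 7.03 and 7.92 stand apart to the right; Alox5ap is at 7.37 and 7.67 in them, and Alox8, at 7.95 and 7.90, is among its lowest values.

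The genes that surround the lipoxygenases in lipid mediator metabolism were compared between genotypes as 10 lists with 171 measured genes of 191 listed. None was called higher or lower in mutants by limma over all genes, in a comparison that called 0.76% of genes, so that a count of 0 is near the share over all genes. Of the 171, 19 had an unadjusted p under 0.05, which is 11.1% of them against 11.9% of all genes. The median difference over the 171 was -0.01, with 78 above 0 and 93 below.

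Of 28 genes that release fatty acids from membranes none passed, 19 lay above 0 and the median was 0.02. The secreted phospholipases Pla2g10, Pla2g2e and Pla2g5 had differences of 0.10 ± 0.03, 0.12 ± 0.05 and 0.12 ± 0.05, and the diacylglycerol lipase Daglb one of -0.06 ± 0.03 (limma, adjusted p = 0.181, 0.364, 0.396 and 0.393). Of 10 genes that activate arachidonate and return it to phospholipids none passed, with a median of -0.01; Fads2, a fatty acid desaturase, had 0.03 ± 0.03 and Acsl4, the arachidonate-preferring acyl-CoA synthetase, -0.03 ± 0.04.

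Of 17 enzymes and partners downstream of 5-lipoxygenase none passed. Lta4h, which forms leukotriene B4, was at 8.99 ± 0.06 (SD, n = 12) in wild types and 8.89 ± 0.08 in mutants, a difference of -0.10 ± 0.03 (limma, adjusted p = 0.157). Cyp4f16 and Cyp4f13, of the cytochrome family that inactivates leukotrienes, had 0.18 ± 0.06 and 0.08 ± 0.03 and Mgst3, a membrane glutathione transferase, -0.08 ± 0.04 (limma, adjusted p = 0.152, 0.312 and 0.405). Of 12 receptors of leukotrienes and related lipids none passed; Cysltr2, a cysteinyl leukotriene receptor, had 0.14 ± 0.08 and Ltb4r1, the leukotriene B4 receptor, 0.07 ± 0.05.

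Of 22 genes of prostaglandin synthesis and reception, Ptges2 and Ptges3, prostaglandin E synthases, had -0.10 ± 0.04 and -0.08 ± 0.03, Prxl2b, a prostamide and prostaglandin F synthase, -0.07 ± 0.03 and Ptgs2, the inducible cyclooxygenase, -0.08 ± 0.07 (limma, adjusted p = 0.219, 0.338, 0.32 and 0.698). Of 19 genes of the P450 branch, with a median of 0.03, Ephx4, an epoxide hydrolase family gene, had -0.08 ± 0.03 and Ephx2, the soluble epoxide hydrolase, 0.03 ± 0.04. Of 16 genes that act with Alox12b and Aloxe3 in epidermal barrier lipids, with a median of -0.02, Nipal4 had -0.13 ± 0.06 and Sdr9c7, the dehydrogenase that acts after Aloxe3, 0.12 ± 0.07 (limma, adjusted p = 0.405 and 0.504).

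Of 27 genes that reduce lipid hydroperoxides or limit lipid peroxidation, 19 had values below 0, with a median of -0.03, and none passed. Hmox1, heme oxygenase, was at 7.32 ± 0.17 (SD, n = 12) in wild types and 7.09 ± 0.16 in mutants, a difference of -0.23 ± 0.06 (limma, adjusted p = 0.114). It passed with array number as a term (-0.21, adjusted p = 0.0482) and with replicate number as a block (adjusted p = 0.0146), and under none of the other alternatives run. Gclc, the catalytic subunit of glutamate-cysteine ligase, had -0.07 ± 0.02, Gss, glutathione synthetase, -0.09 ± 0.04 and Gpx4, which reduces phospholipid hydroperoxides, -0.05 ± 0.03 (limma, adjusted p = 0.144, 0.368 and 0.477). Of 19 nuclear receptors for fatty acid derivatives and their targets none passed and the median was -0.01; Rxrb, a retinoid X receptor, had -0.07 ± 0.03 (limma, adjusted p = 0.375) and Ppara, a receptor that 8-hydroxyeicosatetraenoic acid is known to activate, -0.001 ± 0.05.

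**Figure D5:**
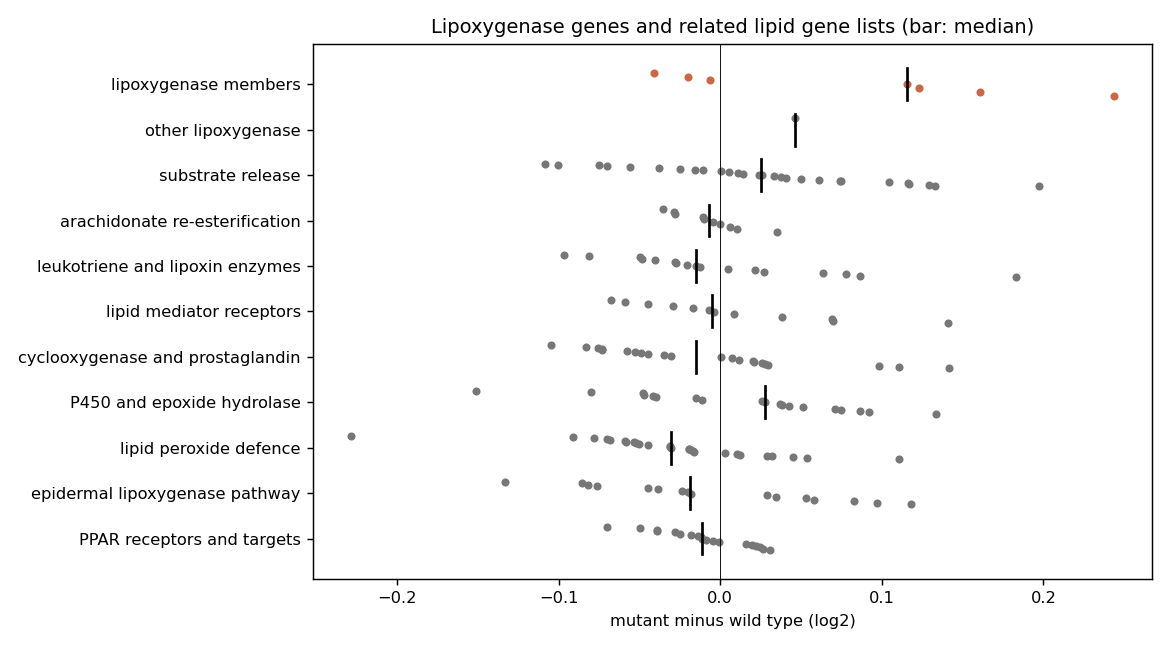
Mutant minus wild type on the log2 scale for the 7 lipoxygenase genes (top row) and for the 171 measured genes of the 10 related lists, 1 point per gene, with a bar at each list's median. Alox8, at 0.24, lies to the right of every gene of the lists, and the lowest point is Hmox1, at -0.23. Alox8 was chosen for its difference and the list genes were not, so nothing is read from its place.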

How the data were processed

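The authors deposited 1 log2 value per probe set and array, 35556 rows for 24 arrays; per the submitters' processing notes they were made with RMA, with version, settings and genome build not given in the sources used here. That these are log2 values was read from the range of the deposited values, 1.82 to 14.49. Biotin-labelled cDNA of total RNA was hybridised to an Affymetrix array, per the labels' protocols. Rows were named through the platform annotation: 21219 had 1 gene symbol, 1880 several and 12457 none listed here. The brightest row by its mean over 24 arrays stood for a gene, giving 18821 genes, of which 18790 matched a RefSeq table (GRCm38.p6) used for names and gene order.

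Genotypes were compared with limma 3.58.1 (lmFit, eBayes, genotype as the only term) in R 4.3.3, adjusted over all genes by Benjamini-Hochberg with a threshold of 0.05; the step was tested on simulated data. SDs are between arrays, SEs are those of the fit. The labels do not say that each replicate was a separate animal, so p-values measure only the spread between these samples, which may be technical. Relations across arrays used deviations from genotype means and 100000 permutations within genotype. Where arrays were left out of a relation, the deviations were not centred again, so a shift between genotypes can enter that r. Genes were named by rule: all members, called genes and 1 to 4 of smallest p per list, the 3 nearest neighbours on each side, and the genes most like each member; Gpx4, Ptgs2, Ephx2, Acsl4, Ppara and the pair of neuronal markers were named for their role, and Krtdap and Lor as the ends of their list. The members and lists were chosen with earlier results of these data known. Genotypes share replicate numbers, but no label ties a number to a litter, so the numbers were not taken as pairs in the main fit. Deviations of same-numbered arrays correlated between -0.08 and 0.31, with 6 of 12 pairs above 0.1. Their median was 0.10, against -0.01 for arrays of other numbers. Same-numbered arrays also lie close in running array number. The replicate block and the array-number term are therefore not separate alternatives.

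The closing section gives the effect of the alternatives. Exon-level values were not analysed here.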

Additional observations from a re-analysis of the deposited data

How the results depend on the processing

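The main fit called 100 genes higher and 43 lower in mutants, and leaving out each array in turn gave 82 to 108 and 37 to 56. Higher calls numbered 48 among genes brighter than the median gene and 35 in arrays 1 to 12 alone and in arrays 13 to 24 alone, where fewer genes or arrays enter. Lower calls numbered 66 with a variance trend, 67 among genes brighter than the median gene, 66 without the dimmest 25% of genes, 23 and 22 in these sets of arrays, and 69 when the first residual component was a term; apart from the smaller sets, the cause was not tested. Of the related lipid genes, 1 (Hmox1) was lower with the replicate block and 1 with array number as a term, and none under any other setting; the replicate block, which called 110 genes higher and 37 lower, gave the same member differences as the main fit because the design is balanced. No neighbour of Alox8 outside the members was called under any setting.

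The differences of Alox8, Alox12b, Alox5 and Aloxe3 stayed above 0 under each of the 40 or 41 settings that gave a value, with Alox8 between 0.16 (arrays 1 to 12) and 0.30 (arrays 13 to 24), Alox12b between 0.13 and 0.20, Alox5 between 0.09 and 0.18 and Aloxe3 between 0.08 and 0.16. Alox8 was past the threshold in 39 of the 41 settings and not in arrays 1 to 12 or 13 to 24 alone. Alox12b was past it with the replicate block, the set of arrays or the array number as a term, and no other member was in any. The settings called between 0.303% and 1.22% of the genes tested. They refit the same values, 24 of them without 1 array, and some, such as the variance trend, cannot change a difference. As the members were chosen around this contrast, nothing is read from these counts or signs. The differences of Alox5ap, Alox12 and Alox15 took both signs. Alox5, Alox12, Alox15, Alox5ap and Aloxe3 gave no value in 1 or both of the filters on dim genes. The fits without the granulocyte-high wild types and with array number or a residual component were chosen after the data were seen. The dim rows of Alox12 and Alox15 and 24 arrays limit the precision.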
